A study of Homo sapiens with 31 samples.

Results

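NALM-6 cells, a human pre-B acute lymphoblastic leukemia line, were compared 4 days after lentiviral transduction with an shRNA against XIAP (sh-XIAP) or a control shRNA (sh-CTRL). The comparison held 10 of the 31 libraries of the series, chosen by their time point: 2 EF1a/sh-XIAP, 2 SFFV/sh-XIAP, 3 EF1a/sh-CTRL and 3 SFFV/sh-CTRL. Replicate number 3 was missing for EF1a/sh-XIAP and 2 for SFFV/sh-XIAP at day 4, while no control number was missing. The study's methods state that samples found to be outliers by principal component analysis were left out. The sources do not say whether these replicates were among them. If they were, the spread of the sh-XIAP libraries may be understated. The other 21 libraries came from days 10 and 13 and were used only to set the day 4 values beside later ones. According to the study's methods, the shRNA sat in a miR30 backbone behind dsRED under EF1a, used for moderate knockdown, or SFFV, used for strong knockdown. The control shRNA was directed against an eGFP sequence, and the methods describe control cells marked with mTagBFP and sh-XIAP cells marked with eGFP in the mixing assays. If the same markers were used here, marker and shRNA cannot be told apart. All groups carried a lentiviral vector, so no untransduced cells were compared. The labels say that the cells were followed in vitro, while the text on the whole series speaks of cells from murine bone marrow. The sample labels were used. Nothing says that replicates came from separate transductions, so p-values measure the spread between these libraries, which may be technical.

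XIAP is the best known caspase-binding member of the inhibitor of apoptosis (IAP) family: its BIR domains bind initiator and executioner caspases, and its RING domain ligates ubiquitin. SMAC, encoded by DIABLO, and HTRA2 leave the mitochondrion during apoptosis and displace IAP proteins from caspases. An shRNA in a microRNA backbone is processed by Drosha and Dicer and guides Argonaute to matching transcripts, where the seed, guide bases 2 to 8, also pairs with many unrelated 3′ untranslated regions (UTRs).

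The target of sh-XIAP.1, the shRNA named in the methods, is shown because every sh-XIAP library carried an shRNA labelled as directed at this gene. It lay at chrX:123907423-123907444 (GRCh38, plus strand), in exon 7 of 7 and in the 3′ UTR of the GENCODE 29 transcripts XIAP-201, XIAP-202 and XIAP-205. The 22 reference bases are printed 5′ to 3′, with the bases that pair with the seed in capitals, and 21 of them matched the published target. With at most 1 mismatch, no transcript of another gene matched. The other 2 sites are the 3′ UTR matches with the longest unbroken pairing from the seed after XIAP, 12 bases, printed on the transcript strand. ATP2B1, a plasma membrane calcium pump, held its site at chr12:89589236-89589257 (minus strand). SLC41A1, a magnesium transporter, held its site at chr1:205789156-205789177 (minus strand).
XIAP: gaagcatcatactaTAACTGAa
ATP2B1: gaggactgctactaTAACTGAg
SLC41A1: atttatagttactaTAACTGAa

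The day 4 libraries held 372930 to 1153668 UMIs and 15503 to 19394 detected genes. EF1a/sh-CTRL replicate 2 had the fewest UMIs and stood apart on the first principal component, at 70.4 against −9.63 to −6.65 in the other 9 libraries. It also had the largest share of UMIs in its 10 most counted genes, 11.3% against 6.81% to 8.79%. None of 6 library measures (UMIs, detected genes, and the shares of the top 10 genes, mitochondrial genes, ribosomal protein genes and pseudogenes) differed between the shRNAs, with 0.96 as the adjusted p of each by the exact two-sided permutation test within promoters. All 10 libraries expressed the pre-B genes VPREB1 (397 to 515 CPM, a gene's UMIs scaled to a common library total) and IGLL1 (1255 to 1447 CPM). The T-cell gene CD3G stayed at or below 2.03 CPM. The T-cell list as a whole was counted higher, at 305 to 357 CPM in sh-XIAP and 266 to 362 CPM in sh-CTRL. Its most counted members were IL7R, LCK and TRAC. The myeloid gene MPO stayed at or below 3.02 CPM. S100A9, another myeloid marker, had 0 UMIs in all 10.

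XIAP mRNA itself was not lower in the libraries labelled sh-XIAP at day 4. EF1a/sh-XIAP replicates 1 and 2 had 9 and 9 XIAP UMIs (12.7 and 9.19 CPM), and SFFV/sh-XIAP replicates 1 and 3 had 6 and 7 (8.02 and 9.26 CPM). The EF1a/sh-CTRL replicates had 7, 6 and 12 UMIs (7.12, 16.1 and 10.4 CPM) and the SFFV/sh-CTRL replicates 7, 4 and 5 (7.21, 7.27 and 7.55 CPM). The ranges overlapped, and the highest level belonged to a control library. The means were 9.80 ± 2.04 CPM (SD, n = 4) in sh-XIAP and 9.28 ± 3.57 CPM (SD, n = 6) in sh-CTRL (exact permutation p = 0.78, adjusted p = 0.911 over 10 IAP genes; the smallest p this design allows is 0.01). limma-voom gave a log2 fold change of 0.17 (SE 0.32, adjusted p = 0.994).

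The pooled ratio of XIAP levels, sh-XIAP over sh-CTRL, was 1.11, with an exact 95% interval of 0.674 to 1.82 from 31 and 41 UMIs. Under EF1a the ratio was 1.07 (0.551 to 2.04) and under SFFV 1.18 (0.522 to 2.61). These intervals cover counting error only. At this depth, a fall of pooled XIAP mRNA below 0.674 of the control lay outside the interval, while smaller changes were not detectable. The XIAP count therefore gave no support for the labels, which were kept as given, and every direction below follows them. The study measured its knockdown in NALM-6 cells as XIAP protein by Western blot, moderate with EF1a and strong with SFFV. Protein was not measured in these libraries, and how the mRNA count relates to that protein result was not tested. The target site lay 6521 to 6535 bases before the annotated transcript ends. XIAP was at 9.97 ± 3.21 CPM (SD, n = 5) in sh-XIAP against 10.2 ± 6.39 CPM (n = 5) in sh-CTRL at day 10, and at 8.56 ± 1.42 (n = 6) against 10.9 ± 1.71 CPM (n = 5) at day 13.

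**Figure D1:**
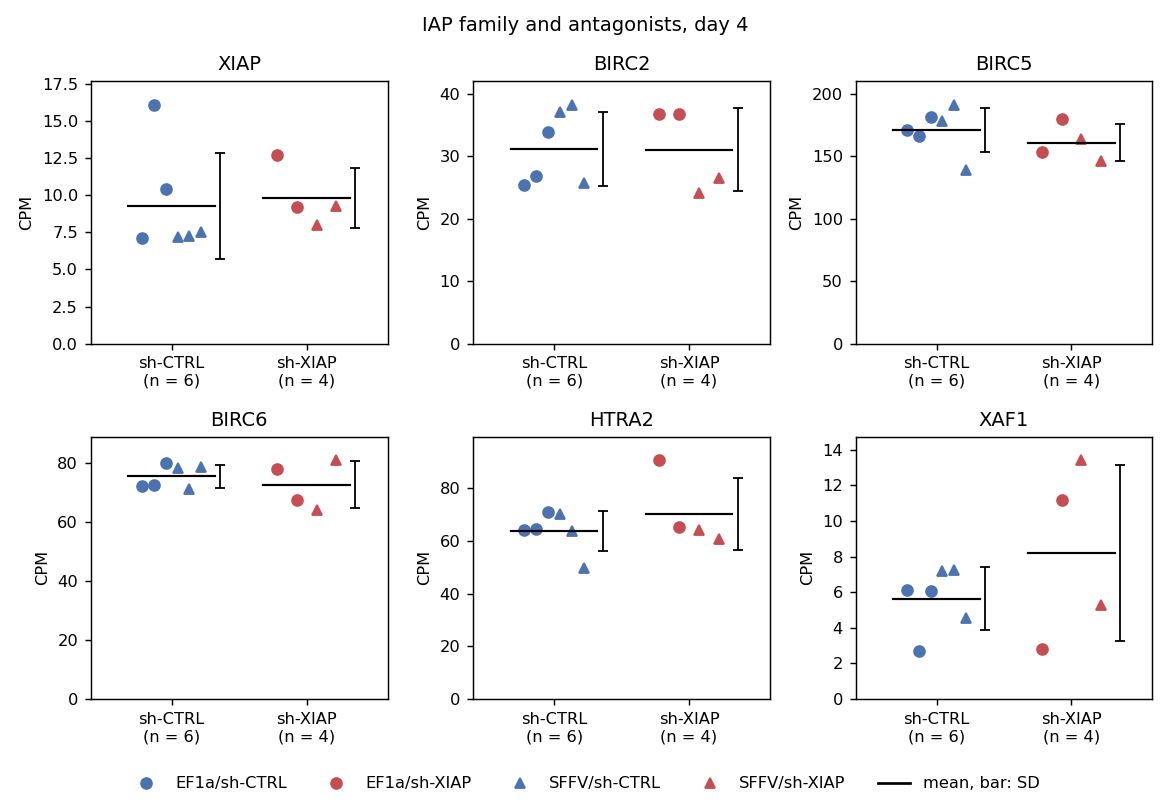
Levels of 6 genes of the IAP family and its antagonists at day 4, in CPM, with 1 point per library (circles EF1a, triangles SFFV), the mean as a line and the SD as a bar (n = 6 sh-CTRL, n = 4 sh-XIAP). The points of both shRNAs overlap in every panel; the highest XIAP point, 16.1 CPM, is EF1a/sh-CTRL replicate 2.

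None of the other IAP genes passed either: 8 of the 10 that were counted could be tested, XIAP included, 6 with a log2 fold change above 0 and 2 below. BIRC2, encoding the ubiquitin ligase cIAP1, ranged from 24.1 to 36.8 CPM in sh-XIAP and from 25.4 to 38.2 CPM in sh-CTRL. Its difference ran in opposite directions under the promoters, 0.34 (EF1a) and −0.40 (SFFV) on the log2 scale, and the test of that difference did not pass (adjusted p = 0.998, limma-voom). BIRC5, encoding survivin, which acts in chromosome segregation, was at 153, 180, 164 and 146 CPM in sh-XIAP and between 139 and 191 CPM in sh-CTRL. BIRC6, a very large IAP that also ligates ubiquitin, was at 72.5 ± 8.005 CPM (n = 4) against 75.35 ± 3.91 CPM (n = 6). BIRC3, encoding cIAP2, was nearly absent, with 2 UMIs over all sh-XIAP and 4 over all sh-CTRL libraries. HTRA2 was at 70.2 CPM in sh-XIAP and 63.8 CPM in sh-CTRL. XAF1, an antagonist of XIAP, was at 2.83, 11.2, 13.4 and 5.29 CPM in sh-XIAP and from 2.68 to 7.27 CPM in sh-CTRL. DIABLO had 7 UMIs in sh-XIAP, from EF1a replicate 2 and SFFV replicate 3, and 0 in sh-CTRL, too few to be tested. NAIP had the largest log2 fold change of the 8 tested, 0.62 (adjusted p = 0.989, limma-voom). It ranged from 0.20 to 1.19 under the alternative fits and passed in none. SEPT4 was at 0.075 on the log2 scale (adjusted p = 0.996, limma-voom). No IAP gene separated the groups.

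Across the transcriptome, few genes differed between sh-XIAP and sh-CTRL at day 4. With the study's threshold, an adjusted p of at most 0.25, limma-voom with promoter as a covariate called 13 of 18336 genes (0.0709%), 11 higher (0.06%) and 2 lower (0.0109%) in sh-XIAP. Without TMM scaling the split was 8 higher and 3 lower. The median log2 fold change over all tested genes was 0.0008. Among 4127 genes with a mean of at least 50 CPM, 0 had a fold change above 1.5 in either direction. edgeR's quasi-likelihood test also called 13 genes (0.0709%), 3 higher and 10 lower, but only RNF25, AC009087.1 and AC024940.2 were called by both. DESeq2 called 0 and limma-trend 0 (177 and 817 genes at an unadjusted p under 0.05, against 891 for limma-voom and 850 for edgeR).

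**Figure D2:**
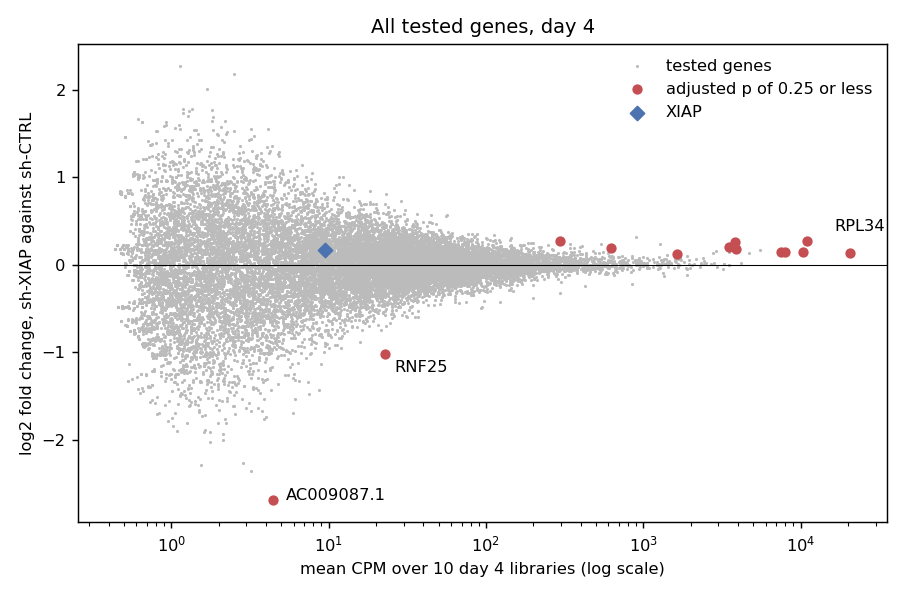
Log2 fold change of sh-XIAP against sh-CTRL (vertical) by mean CPM on a log scale (horizontal) for the 18336 genes tested at day 4, with 1 point per gene. The 13 genes with an adjusted p of 0.25 or less are red: 9 higher genes lie above 1000 CPM, RPL13AP25 and AC024940.2 lie between 200 and 1000 CPM, and RNF25 and AC009087.1 lie below 0; XIAP, the blue diamond, lies at 0.17.

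RNF25 fell in sh-XIAP. It encodes a RING-type ubiquitin ligase and lies on chromosome 2 from 218663864 to 218672411 (minus strand, GRCh38). EF1a/sh-XIAP replicates 1 and 2 were at 14.1 and 10.2 CPM and SFFV/sh-XIAP replicates 1 and 3 at 13.4 and 18.5 CPM. The EF1a/sh-CTRL replicates were at 32.5, 26.8 and 24.3 CPM and the SFFV/sh-CTRL replicates at 27.8, 29.1 and 31.7 CPM. Every sh-XIAP library lay below every control library. The log2 fold change was −1.02 (SE 0.25, limma-voom adjusted p = 0.212; edgeR adjusted p = 0.0704), and it was −1.18 under EF1a and −0.87 under SFFV. These levels rested on 44 UMIs in sh-XIAP and 134 in sh-CTRL, a pooled ratio of 0.483 (exact 95% interval 0.335 to 0.683). This interval covers counting error only, not the spread between libraries, and RNF25 was picked by its difference in the same libraries. DESeq2 and limma-trend did not call RNF25 (adjusted p = 0.9998 and 0.8785).

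The call of RNF25 depended on single libraries: it passed in 2 of the 10 fits that left 1 out, those without EF1a/sh-CTRL replicate 2 (adjusted p = 0.193) or replicate 3 (adjusted p = 0.116). The adjusted p in the other 8 reached 0.947, without EF1a/sh-XIAP replicate 2. At the later days the libraries overlapped. RNF25 ranged from 6.39 to 38.3 CPM in sh-XIAP and from 15.5 to 32.4 CPM in sh-CTRL at day 10. At day 13 it ranged from 16.3 to 42.8 CPM and from 8.25 to 36.4 CPM. Its log2 fold change there was −0.09 and 0.43, and the difference between day 4 and the later days, −1.20, did not pass (adjusted p = 0.723). The annotated 3′ UTRs of RNF25 held 0 seed sites, and the rest of its transcripts was not searched for them.

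The other gene called lower was AC009087.1, an antisense RNA gene on chromosome 16 (72084857 to 72087443, plus strand). It was counted with 4, 0, 0 and 0 UMIs in the 4 sh-XIAP libraries and with 34 over the 6 sh-CTRL libraries, which ranged from 2.68 to 12.4 CPM. The EF1a/sh-XIAP replicate 1 value, 5.66 CPM, lay within the control range. The pooled ratio was 0.173 (0.0446 to 0.485, again counting error only for a gene picked in the same libraries). The adjusted p was 0.176 by limma-voom. It passed in 5 of the 10 fits that left a library out, and the adjusted p was 0.293 without EF1a/sh-CTRL replicate 1, 0.618 without SFFV/sh-CTRL replicate 1, 0.993 without EF1a/sh-XIAP replicate 2, 0.660 without SFFV/sh-XIAP replicate 1 and 0.867 without SFFV/sh-XIAP replicate 3. With so few UMIs, and with the strand setting of the counting not given in the sources used here, reads of overlapping genes cannot be told apart from it. The next 3 genes by p on the lower side, AC002519.2, AP000766.1 and AL606760.2, had 0, 2 and 1 UMIs in sh-XIAP against 12, 23 and 19 in sh-CTRL, and none passed (adjusted p = 0.500, 0.500 and 0.553, limma-voom).

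Of the 11 genes called higher, 4 encode ribosomal proteins (RPL34, RPL29, RPL37, RPS18), 2 are mitochondrially encoded mRNAs (MT-CO2, MT-ATP6) and 5 are processed pseudogenes. RPL34, a protein of the large ribosomal subunit and the most counted of them, had a log2 fold change of 0.14 (SE 0.014, adjusted p = 2.21e-08 by limma-voom). The libraries did not show this difference on their own. RPL34 was at 21341, 19105, 19824 and 19924 CPM in sh-XIAP and at 17658 to 29169 CPM in sh-CTRL (median 19298). Its mean was lower in sh-XIAP (20049 CPM) than in sh-CTRL (21040 CPM), against the sign of the fit. edgeR, DESeq2 and limma-trend, which do not use voom's weights, gave −0.067, −0.081 and −0.043. The mean CPM of RPL34P18, MT-CO2 and RPS18 ran against the fitted sign as well.

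The CPM of several of these genes was higher in smaller libraries. Among the controls RPL34 was highest in the 3 libraries with the fewest UMIs, at 29169 CPM (372930 UMIs), 22985 CPM (549881 UMIs) and 20193 CPM (662100 UMIs), and lowest in the one with the most, 17658 CPM (1153668 UMIs). MT-CO2, encoding a cytochrome oxidase subunit, went from 9417 to 6668 CPM, RPS18 from 14118 to 8807 CPM and RPL37 from 5041 to 3068 CPM between the same smallest and largest libraries. RPL13AP25 and AC024940.2 ran the other way, from 558 to 609 CPM and from 233 to 286 CPM. The part of library size in these calls was not tested. With log2 total UMIs as a covariate the log2 fold change of RPL34 was 0.0515 and still passed (adjusted p = 6.01e-14), while after thinning every library to 372930 UMIs 0 genes were called (779 at an unadjusted p under 0.05, limma-voom). Without EF1a/sh-CTRL replicate 2 RPL34 no longer passed (0.12, adjusted p = 0.261), and the count over all genes rose from 13 to 20.

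**Figure D3:**
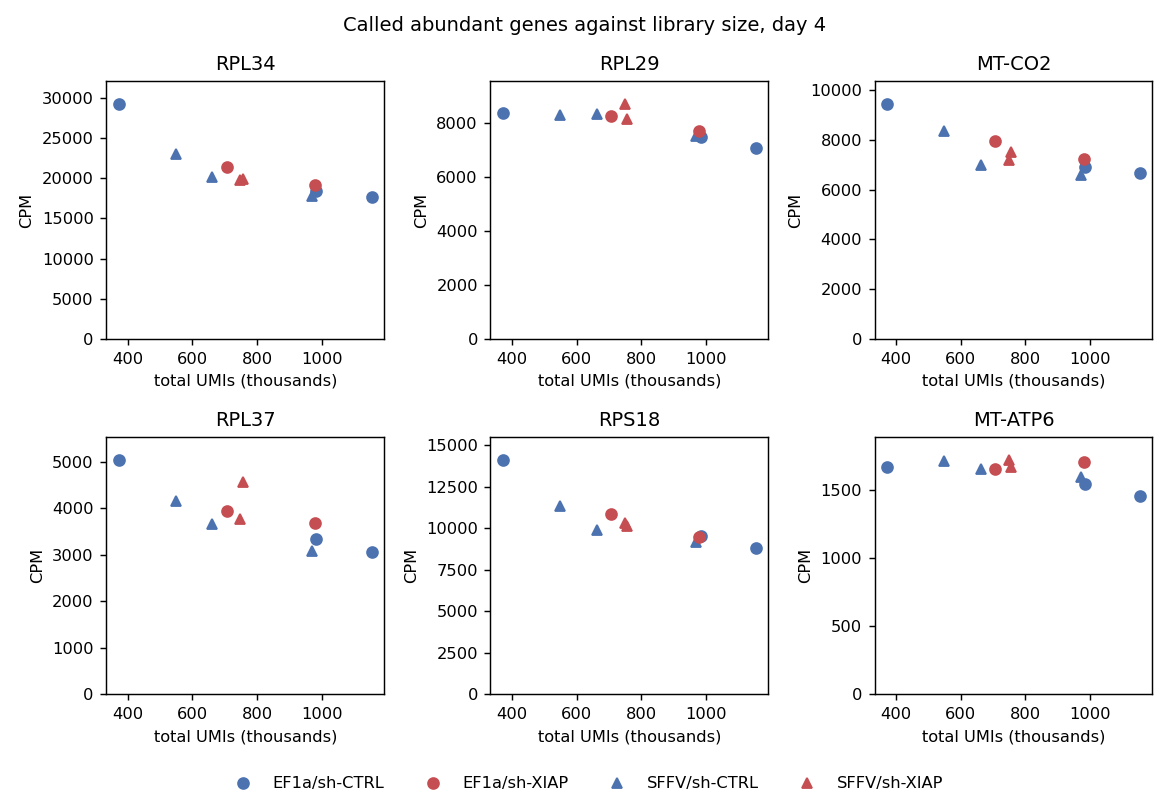
Levels of the 6 most counted protein-coding genes called at day 4, in CPM from 0, against the total UMIs of each library, with 1 point per library (circles EF1a, triangles SFFV; blue sh-CTRL, red sh-XIAP). The level of RPL34 falls from 29169 CPM in the smallest library to 17658 CPM in the largest, with the 4 sh-XIAP libraries between.

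Among the called pseudogenes, RPL13AP25 and AC024940.2 were the ones whose libraries separated. RPL13AP25, a copy of RPL13A on chromosome 13 (54440704 to 54441315, minus strand), was at 658, 663, 648 and 708 CPM in sh-XIAP and at 558 to 609 CPM in sh-CTRL (median 588.5). Its log2 fold change was 0.19 (SE 0.043, adjusted p = 0.129 by limma-voom). AC024940.2, on chromosome 12 (31251992 to 31252597, minus strand), was at 338, 318, 314 and 364 CPM in sh-XIAP and at 233 to 293 CPM in sh-CTRL (log2 fold change 0.27, SE 0.066, adjusted p = 0.248). It passed in 2 of 10 fits that left a library out, and RPL13AP25 passed in 5. Reads of such copies can be assigned to the parent gene or the reverse, so their levels are uncertain.

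Summed with their named copies, 8 of 9 families around the called genes overlapped between the groups. RPL34 with 16 named copies came to 43434 ± 3192 CPM (n = 4) in sh-XIAP and 46861 ± 13958 CPM (n = 6) in sh-CTRL, and RPL34 itself held 46.1% of those UMIs. RPL29 and its copies came to 15264 ± 1142 against 14523 ± 1319 CPM. RPL13A and its copies came to 4425, 4359, 4334 and 4598 CPM in sh-XIAP and to 3730 to 4279 CPM in sh-CTRL. The RPL13A ranges did not overlap, with a ratio of means of 1.09, but the family was chosen because its copy had been called in the same libraries.

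The 8 genes that edgeR alone called lower included RPL39L, a paralog of the ribosomal protein gene RPL39, and the RPL39 copies RPL39P25 and RPL39P3. RPL39L was at 781, 720, 774 and 670 CPM in sh-XIAP and at 625 to 1276 CPM in sh-CTRL (edgeR adjusted p = 3.71e-04, limma-voom adjusted p = 0.989). Its level was high in EF1a/sh-CTRL replicate 2 (1276 CPM) and SFFV/sh-CTRL replicate 1 (1145 CPM) and between 625 and 928 CPM in the other 4 controls. The groups overlapped, as did the sums over RPL39 and its named copies.

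NET1 and NUDT9 were called higher by edgeR alone, and among genes of at least 50 CPM they were the nearest to the limma-voom threshold on the higher side. NET1, a guanine nucleotide exchange factor for RhoA, was at 77.8, 64.3, 60.1 and 72.8 CPM in sh-XIAP and at 40.8 to 61.7 CPM in sh-CTRL (median 44.4). The lowest sh-XIAP library lay just under the highest control, EF1a/sh-CTRL replicate 2 (log2 fold change 0.56, SE 0.14, adjusted p = 0.334 by limma-voom and 0.180 by edgeR). NUDT9, an ADP-ribose pyrophosphatase, was at 73.6, 64.3, 65.5 and 70.1 CPM in sh-XIAP and at 36.2 to 60.0 CPM in sh-CTRL. Its libraries did not overlap (log2 fold change 0.56, SE 0.14, adjusted p = 0.339 by limma-voom and 0.216 by edgeR). At day 13 the mean of NUDT9 was 51.5 CPM in sh-XIAP and 65.5 CPM in sh-CTRL, and that of NET1 was 57.5 and 58.4 CPM. NET1 held 1 seed site in an annotated 3′ UTR and NUDT9 held 0.

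In all, 169 of the 18336 tested genes (0.922%) had no overlap between the sh-XIAP and sh-CTRL libraries in CPM, 101 higher (0.551%) and 68 lower (0.371%), and among the 13 called genes 3 did. Among so many genes some separate 4 libraries from 6 by chance, so separation alone does not mark a gene as changed. RAG2, a subunit of the recombinase that joins antigen receptor segments, was among the 101: 82.0, 74.5, 80.2 and 86.0 CPM in sh-XIAP against 53.6 to 72.2 CPM in sh-CTRL. It did not pass (log2 fold change 0.32, SE 0.12, adjusted p = 0.989, limma-voom).

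**Figure D4:**
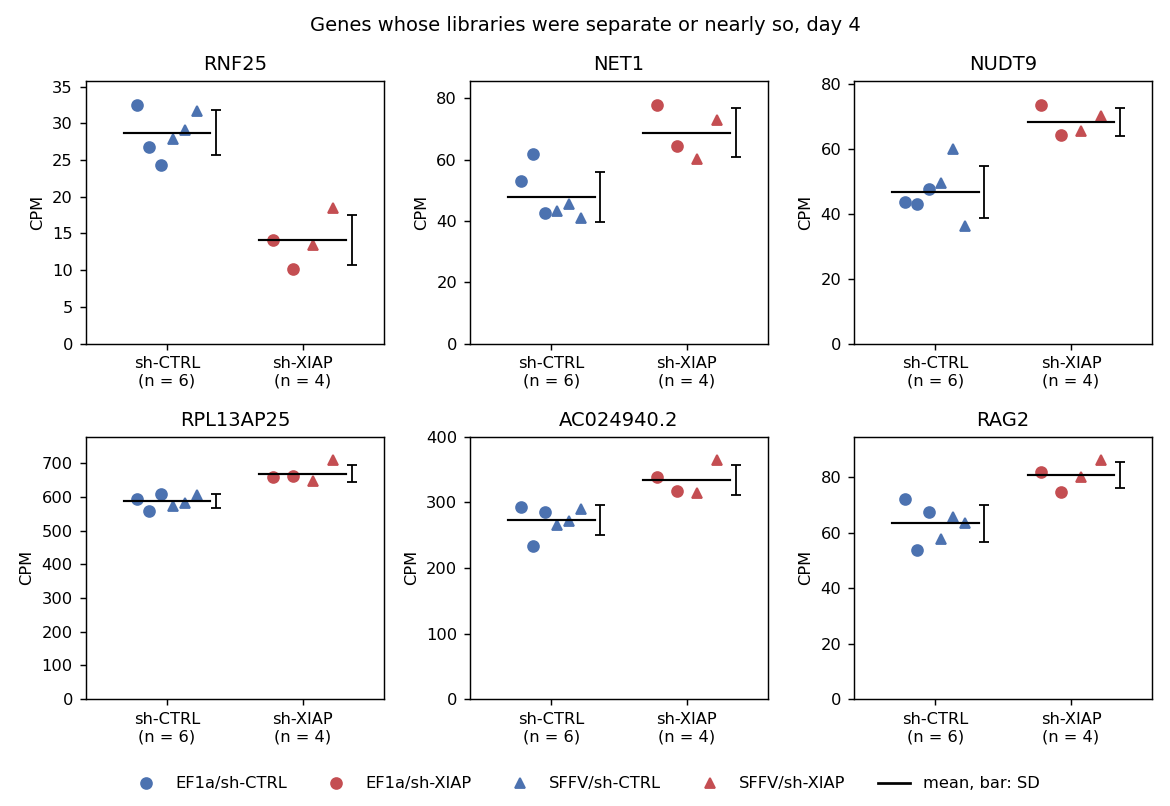
Levels of RNF25, NET1, NUDT9, RPL13AP25, AC024940.2 and RAG2 at day 4, in CPM from 0, with 1 point per library (circles EF1a, triangles SFFV), the mean as a line and the SD as a bar (n = 6 sh-CTRL, n = 4 sh-XIAP). RNF25 lies lower in every sh-XIAP library (10.2 to 18.5 CPM against 24.3 to 32.5 CPM), NET1 overlaps in 1 control point, and the other 4 genes lie higher in every sh-XIAP library.

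No gene passed the test of a difference in sh-XIAP effect between the moderate and the strong promoter. Under EF1a alone, 9 of 18336 genes were called (0.0491%), 8 higher (0.0436%) and 1 lower (0.00545%). Under SFFV alone 2 were called (0.0109%), RPL34 higher (0.00545%) and RPL11 lower (0.00545%). RPL11, another protein of the large subunit, was at 3033 and 3183 CPM in SFFV/sh-XIAP and at 3425, 3177 and 3353 CPM in SFFV/sh-CTRL (log2 fold change −0.12, adjusted p = 0.0175, limma-voom). The SFFV groups overlapped for RPL11, and under EF1a its log2 fold change was −0.0067. GAPDHP70, a pseudogene of GAPDH, was the gene called lower under EF1a, with 0 and 0 UMIs in EF1a/sh-XIAP and 6, 4 and 8 in EF1a/sh-CTRL. The test of the promoter difference called 0 genes (0%) by limma-voom, with 853 at an unadjusted p under 0.05, and edgeR and DESeq2 called 0 as well. The difference of GAPDHP70 between the promoters did not pass (adjusted p = 0.752, limma-voom).

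The sh-XIAP effects at day 4 were tested against those of days 10 and 13. Over the 31 libraries, 0 of 17676 genes (0%) passed the test of that difference by limma-voom, with 840 at an unadjusted p under 0.05. edgeR called 1 and DESeq2 0. The count depended on single libraries, with 9 calls without EF1a/sh-CTRL replicate 1 and 11 without EF1a/sh-CTRL replicate 2. Of the 13 genes called at day 4, 3 had the same sign over the later days and 1 had it at both day 10 and day 13. RPL13AP25 was at 631 ± 31.7 CPM (n = 5) in sh-XIAP against 649.9 ± 36.2 CPM (n = 5) in sh-CTRL at day 10, and at 634 ± 33.0 (n = 6) against 651 ± 60.2 CPM (n = 5) at day 13.

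The gene groups around XIAP gave no call at day 4 by limma-voom, and edgeR called 0 genes in any of the lists described here. Only 0.0709% of all tested genes were called, so a list of this size would be likely to hold none. The 0 calls here and in the lists below therefore do not show that these genes were unchanged. Caspases and the apoptosome had 0 of 13 tested members called, with a median log2 fold change of 0.076 beside 0.0008 over all genes. The median of this list was 0.22 under EF1a and −0.098 under SFFV, a difference that was not tested. APAF1, the scaffold of the apoptosome, was at 49.6 ± 11.4 CPM (n = 4) in sh-XIAP and 40.9 ± 15.3 CPM (n = 6) in sh-CTRL. PARP1, a caspase substrate, was at 336 CPM against 357 CPM, and CYCS, cytochrome c, at 195 CPM against 199.6 CPM. The BCL2 family had 0 of 17 called, with 4 members above and 13 below 0 (median −0.028). Its PMAIP1, which encodes the pro-apoptotic NOXA and is also a p53 target, was at 158 CPM against 171 CPM, and the anti-apoptotic MCL1 at 146 CPM against 156 CPM.

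Receptor and transcription pathways held no call either, beside 0.0709% over all genes. Death receptor and RIPK genes had 0 of 19 called (median −0.063), with TNFAIP3, an inhibitor of NF-kB signaling, at 145 CPM in sh-XIAP and 153 CPM in sh-CTRL. NF-kB subunits and targets had 0 of 18 called (median −0.034), with RELA, a subunit, at 109 CPM and 98.1 CPM. p53 targets had 0 of 26 called (median −0.029). CDKN1A, the cell-cycle inhibitor p21, was at 437 CPM against 431 CPM. Interferon-stimulated genes, which can respond to viral nucleic acid, had 0 of 38 called (median 0.01), and PSMB8 was at 289 CPM against 293 CPM. ATF4 and endoplasmic reticulum stress genes had 0 of 30 called (median 0.04), with ATF4 itself at 589 CPM against 577 CPM.

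The small RNA pathway that the shRNA passes through had 0 of 13 genes called (median −0.017), beside 0.0709% over all genes. XPO5, which exports hairpin precursors from the nucleus, was at 54.2 CPM in sh-XIAP and 60.1 CPM in sh-CTRL, and TNRC6B, a partner of Argonaute, at 60.1 and 58.1 CPM. The 1795 tested genes with the 7-base seed site in an annotated 3′ UTR had a median log2 fold change of 0.0022, beside 0.0018 in the 9924 genes with a 3′ UTR but no site, and 0 of them were called (5 of 9924 without it). Where an A followed the site, as at XIAP, 759 genes had a median of −0.0027. For the genes whose sites are printed above, the log2 fold change was 0.04 for ATP2B1 (SE 0.17) and −0.19 for SLC41A1 (SE 0.20). These are descriptions of letters in annotated UTRs, which were longer in genes with the site (median 3257 bases against 1400).

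Lineage and growth genes held no call, beside 0.0709% over all genes. Pre-B genes had 0 of 25 called (median 0.029), with IGLL1, the surrogate light chain, at 1380 CPM in sh-XIAP and 1371 CPM in sh-CTRL and DNTT, the terminal transferase, at 714 and 725 CPM. S-phase genes had 0 of 30 called (median −0.016), with 15 members above and 15 below 0, and the sliding clamp PCNA was at 412 and 423 CPM. G2 and mitosis genes had 0 of 32 called (median −0.04). TOP2A, which untangles chromosomes, was at 332 CPM in sh-XIAP and 303 CPM in sh-CTRL (adjusted p = 0.989, limma-voom). MYC and nucleolar genes had 0 of 24 called (median 0.016), with nucleolin (NCL) at 926 CPM against 925 CPM.

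In metabolism and protein handling the same held for 6 more lists, again beside 0.0709% over all genes. Heat shock proteins (0 of 19, median 0.011), cholesterol synthesis (0 of 24, median 0.018), glycolysis (0 of 20, median 0.024), antioxidant genes (0 of 18, median 0.0067), HLA class I genes (0 of 14, median −0.0075) and proteasome subunits (0 of 31, median −0.0072) held no call. HSPA8, a constitutive chaperone, was at 1471 CPM in sh-XIAP and 1432 CPM in sh-CTRL, and GAPDH, a glycolytic enzyme, at 2530 and 2497 CPM.

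The lists that held calls were those with the most counted genes. Mitochondrially encoded mRNAs had 2 of 13 called, both higher, beside 0.0709% over all genes, with 12 members above 0 and a median of 0.11. MT-CO2 was at 0.0018 by edgeR, −0.012 by DESeq2 and 0.013 by limma-trend on the log2 scale, and its mean CPM ran against the fit. MT-CO3, a further cytochrome oxidase subunit, was at 1984 CPM in sh-XIAP and 1950 CPM in sh-CTRL and did not pass. Large-subunit ribosomal proteins had 3 of 46 called and a median of 0.016, and small-subunit proteins 1 of 32 and 0.0094, beside the same 0.0709%. None of these 6 calls in the mitochondrial and ribosomal lists passed by edgeR, DESeq2 or limma-trend. Their summed levels overlapped between the shRNAs: the large-subunit genes came to 84084 to 86950 CPM in sh-XIAP and to 81562 to 94811 CPM in sh-CTRL. Markers of other cell types gave 0 calls. The myeloid list summed to 6.68 to 11.9 CPM in sh-XIAP and 2.68 to 11.3 CPM in sh-CTRL, the erythroid and platelet list to 0 to 7.94 and 0 to 3.02 CPM, and the stromal and epithelial list to 1.42 to 6.62 and 0 to 7.12 CPM. The T-cell list summed to 305 to 357 CPM and 266 to 362 CPM. Its most counted members were IL7R, also a pre-B gene, LCK and TRAC.

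**Figure D5:**
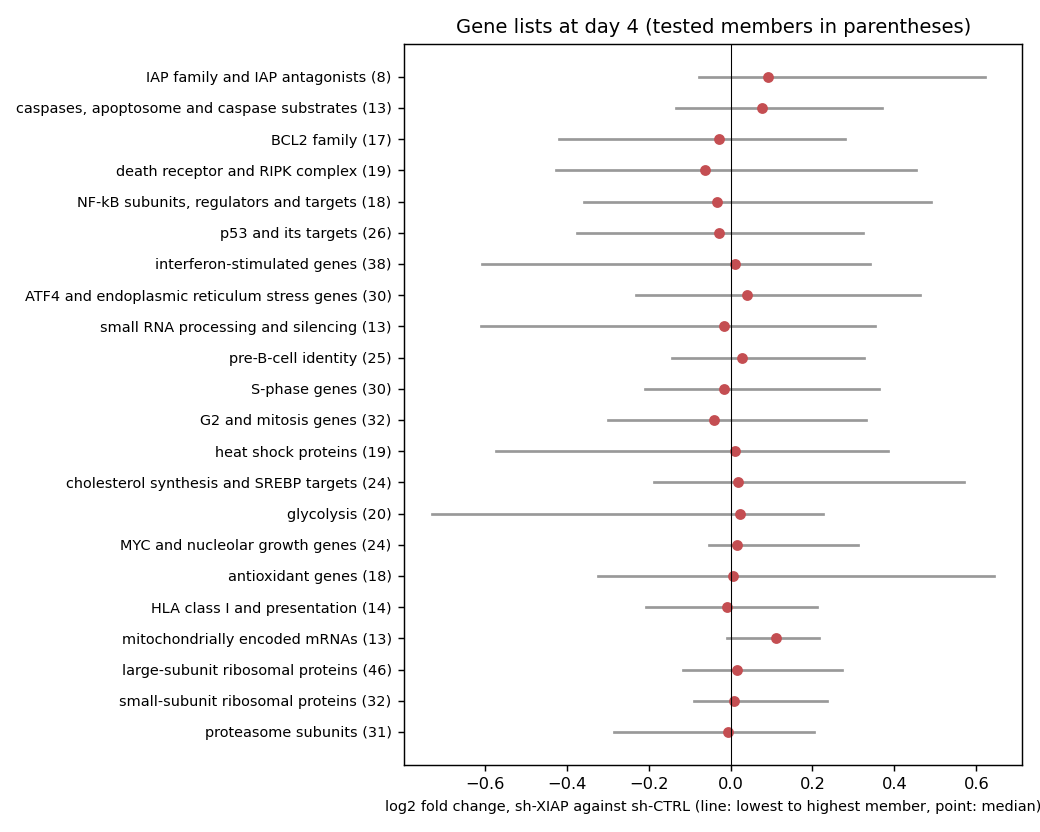
Log2 fold change of sh-XIAP against sh-CTRL at day 4 for the gene lists with at least 5 tested members (numbers in parentheses): the line runs from the lowest to the highest member and the point is the median. All medians lie between −0.063 and 0.11, with the mitochondrially encoded mRNAs highest.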

How the data were processed

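The series holds 31 bulk prime-seq libraries of transduced NALM-6 cells, and the 10 of day 4 are compared here. The authors deposited whole-number UMI counts for 30667 genes, a count being 1 distinct molecular barcode, not normalized. The submitters' processing notes name STAR 2.6.0a and human and mouse builds (hg38, GRCh38, mm10, GRCm38). The counting tool was not given in the sources used here. Of the genes, 29928 had a name in GENCODE 29. Genes over 1 CPM in at least 1/3 of the libraries fitted were tested with limma-voom 3.58.1 (TMM from edgeR 4.0.16, R 4.3.3), with promoter as a covariate. The low-count filter, limma and the adjusted p of at most 0.25 follow the study's methods for the later days, which name no covariate. The promoter and day differences were contrasts in fits with a term per group. Single values were tested by exact two-sided permutation within promoters (100 relabellings). SDs are over libraries. Library totals of 372930 to 1153668 UMIs make 1 UMI worth about 1 to 3 CPM. No pairing by replicate number was seen: same-numbered libraries, each centred on its group, correlated at a mean of 0.00337 (−0.00799 to 0.0137). With groups of 2 or 3 libraries and many low genes, this measure cannot exclude pairing. Replicates differed by more than counting noise. The fit was also run on simulated data with changed genes above 50 CPM. limma-voom recovered 92 of 100 genes changed 1.5-fold and 100 of 100 changed 2-fold, but 57 of its 249 calls were unchanged genes. Apart from the changed genes, every simulated library had the same expression profile. A dependence of CPM on library size was therefore not tested there. Named genes were the IAP genes, the 12 smallest p called in each direction (up to 5 by p where fewer passed), the 3 smallest p per direction called in the other contrasts, and the called and 2 to 4 most counted members of each list. NET1, NUDT9, RAG2, APAF1, RPL39L, CD3G and MPO were named after their values had been seen. Members and lists were chosen with earlier results of these data known. Alternatives covered edgeR, DESeq2 1.42.0, limma-trend, scaling, filters, thinning, depth, sample weights and libraries left out.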

Additional observations from a re-analysis of the deposited data

Results flagged for a closer look

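Among 70 sets of day 4 values (36 measures, by shRNA), 9 held a library far from the others by Dixon's 95% criterion, and chance alone marks about 1 in 20 sets. EF1a/sh-CTRL replicate 2 lay at 70.4 on the first principal component, and SFFV/sh-CTRL replicate 2 at −57.8 on the second. The same EF1a control had the highest XIAP level of the controls, 16.1 CPM. For HTRA2, EF1a/sh-XIAP replicate 1 was highest of its group at 90.5 CPM and SFFV/sh-CTRL replicate 3 lowest of its group at 49.8 CPM. The other 4 were genes with 0 or few UMIs: BIRC3 at 2.67 CPM in SFFV/sh-XIAP replicate 1, AC009087.1 at 5.66 CPM in EF1a/sh-XIAP replicate 1, AP000766.1 at 2.65 CPM in SFFV/sh-XIAP replicate 3 and AL606760.2 at 1.02 CPM in EF1a/sh-XIAP replicate 2. In each of these 4 genes the other 3 sh-XIAP libraries were at 0.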

How the results depend on the processing

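With 31 XIAP UMIs in the 4 sh-XIAP libraries, depth limits low genes most; the causes of the changes below were not tested. The 13 calls at day 4 (11 higher, 2 lower) became 8 at an adjusted p of at most 0.05, 0 with DESeq2, limma-trend, filterByExpr or thinned counts, 25 with no filter on low counts, 7 over protein-coding genes, 25 with log2 total UMIs as a covariate and 5 in a fit of all 31 libraries. Without TMM the split was 8 higher and 3 lower. Leaving out 1 library gave 8 to 22 calls: 8 without SFFV/sh-CTRL replicate 1, 20 without EF1a/sh-CTRL replicate 2 and 22 without EF1a/sh-CTRL replicate 3. The 9 calls under EF1a became 5 at an adjusted p of at most 0.05, 0 with edgeR, DESeq2, limma-trend, filterByExpr or thinning, 4 without TMM, 5 with DESeq2 size factors, 29 with no filter, and 3 (without EF1a/sh-XIAP replicate 1) to 17 (without EF1a/sh-CTRL replicate 2). The 2 under SFFV became 8 with edgeR, 0 with DESeq2, limma-trend, DESeq2 size factors, filterByExpr or thinning, 6 without TMM, 11 with no filter, 5 over protein-coding genes, and 0 (without SFFV/sh-CTRL replicate 1) to 12 (without EF1a/sh-CTRL replicate 3). The promoter difference went from 0 to 1 with DESeq2 size factors, 10 with no filter, and 0 to 2 with a library left out (2 without EF1a/sh-CTRL replicate 2). The day difference went from 0 to 1 with edgeR, no TMM or filterByExpr, 2 with DESeq2 size factors or protein-coding genes, and 0 to 11 with a library left out (9 and 11 without EF1a/sh-CTRL replicates 1 and 2).

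With the replicate number as a block, there were 20 calls at day 4, 0 under EF1a and 21 under SFFV. The promoter difference then held 11 calls and the day difference 0. BIRC2 was at −0.030 and SEPT4 at −0.070 in this fit. Whether the numbers pair the libraries is not known.

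Of 605 log2 fold changes of 28 genes under the alternatives, 37 reversed. XIAP was at −0.081 and BIRC6 at 0.085 with thinned counts. BIRC2 was at −0.012 with DESeq2, −0.0070 with limma-trend, −0.0042 without TMM, −0.0078 without the promoter term, −0.028 over all 31 libraries and −0.11 to 0.11 with a library left out. HTRA2 ranged from −0.0027 to 0.20 and SEPT4 from −0.40 to 0.41 with a library left out. SEPT4 was at −0.0011 with edgeR, −0.047 with DESeq2, −0.044 with limma-trend and −0.0095 with no filter. With edgeR, DESeq2, limma-trend and no filter in turn, RPL34 was at −0.067, −0.081, −0.043 and −0.36, RPL34P18 at −0.11, −0.13, −0.050 and −0.30, and RPS18 at −0.035, −0.048, −0.017 and −0.034. RPL34 was at −0.0087 over all 31 libraries, and MT-CO2 at −0.012 with DESeq2. The protein-coding fits, the libraries left out of the day difference and, for single genes, the fits without the promoter term, with the depth covariate and over 31 libraries were chosen after seeing the data.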
